A study of Mus musculus with 31 samples.

Results

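The genes described here are 39 members of the machinery that repairs DNA and signals its damage, taken by symbol from 3 RNA-seq count matrices of Panc02 cells. They are 39 of the 55487 genes listed for spheroids kept in conditioned media, of 56980 listed for 2D- and 3D-cultured cells and of 56941 listed for 3D-cultured cells with Hif1α or Myc overexpression. All 39 passed the filter on low counts in all 3 matrices. They were sorted by the process they serve into 12 genes of homologous recombination, 7 of the Fanconi anaemia pathway, 3 of mismatch repair, 4 of end joining, 6 of base excision and single-strand break repair, and 7 of damage signalling. Panc02 is a mouse pancreatic adenocarcinoma line, and the study asked how Cxcl5, which encodes a chemokine, acts on such cells when they grow as spheroids embedded in Matrigel.

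DNA is damaged by copying errors, by reactive oxygen and by stalled replication, and each kind of lesion has its own repair route. Homologous recombination copies the sister DNA molecule to mend a double-strand break and works mainly in cells that are replicating, whereas end joining ligates broken ends at any time in the cell cycle. The Fanconi anaemia pathway unhooks crosslinks between the strands, mismatch repair corrects copying errors, base excision repair removes damaged bases, and the kinases ATM and ATR with their helpers report damage and hold the cell cycle. Many genes of the replication-coupled routes are transcribed in proliferating cells through E2F factors.

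The first matrix held 9 libraries of WT spheroids, 3 each in control medium (Ctrl), in medium conditioned by unstimulated macrophages (M0-CM) and in medium conditioned by macrophages given interferon gamma and lipopolysaccharide (M1-CM). The second held 12 libraries, 3 each of 2D WT, 2D Cxcl5-/-, 3D WT and 3D Cxcl5-/- cells, all in culture medium. The third, called the rescue matrix here, held 10 libraries of 3D-cultured cells: 2 WT, 2 Cxcl5-/-, 3 Hif1αOE Cxcl5-/- and 3 MycOE Cxcl5-/-. Cxcl5 was deleted with a single guide RNA delivered by a CRISPR lentiviral vector, and Hif1α, in a stabilized mutant form, or Myc was added to the Cxcl5-/- line with a retroviral vector, so both overexpressing groups carry the deletion too. The infected cells were selected with puromycin, and no source used here says that a line was grown from 1 clone. No rescue group is labelled as Cxcl5-/- cells with an empty vector. Effects of the vector, its selection or the line therefore cannot be told apart from those of Hif1α or Myc. The labels of the rescue libraries give a differently numbered cell line for each library, whereas the study's methods name Panc02. No label says that the replicates were separate cultures, and p-values then measure only the spread between libraries, which may be technical. The study's methods speak of biological replicates for its experiments in general. In bulk libraries such as these, fewer cells that express a gene and less of its RNA per cell cannot be told apart.

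Total counts were between 43875429 and 78498230 in the conditioned media libraries, between 46973008 and 72361685 in the 2D and 3D libraries and between 41542533 and 64872036 in the rescue libraries. Levels are given as CPM, the count scaled to a common library size after TMM scaling. Cxcl5 itself, which checks the labels, stood at 45.6, 47.3 and 49.1 CPM in 2D WT and at 37.4, 32.7 and 32.8 CPM in 2D Cxcl5-/- libraries. The 3D WT libraries held it at 28.5, 24.5 and 28.0 CPM, and those labelled 3D Cxcl5-/- at 65.5, 40.9 and 45.4 CPM, which goes against that label. These 3 libraries are therefore called by their label throughout, and a count over the whole gene does not show whether the guide's edit is present. The same 3 libraries held Hif1a at 140 to 175 CPM and Myc at 9.12 to 11.4 CPM, against 336 to 407 CPM and 33.9 to 36.9 CPM in 3D WT. In the rescue matrix Cxcl5 was at 64.2 and 67.7 CPM in WT and between 35.5 and 49.1 CPM in the other 8 libraries. Myc reached between 397 and 548 CPM in MycOE Cxcl5-/- against 22.3 and 20.0 CPM in Cxcl5-/-, so that Myc marks its libraries. Hif1a was at 243 to 296 CPM in Hif1αOE Cxcl5-/- against 144 and 133 CPM in Cxcl5-/-, but at 241 to 271 CPM in MycOE Cxcl5-/- and at 304 and 324 CPM in WT, so that its level does not set the Hif1αOE libraries apart. As a check of the cell type, 6 ductal and epithelial markers summed to at least 190 CPM in every library, with 0 to 4 of them at 0, and differed between the groups as given with the other markers at the end. The 5 acinar markers summed to at most 2.81 CPM and 4 endothelial markers to at most 3.50 CPM. A list of 6 fibroblast genes summed to 426 to 574 CPM in the conditioned media libraries, where the ductal and epithelial list summed to 199 to 547 CPM. Only 3 of the ductal and epithelial genes passed the filter in that matrix, and these sums do not settle the cell type.

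The stretches upstream of 6 members are shown because these genes mark the different patterns of the results. Fancb, Rnf8 and Traip fell in 3D WT, Atr was the member that rose there, Xrcc4 was higher in the 3D libraries labelled Cxcl5-/- of both matrices, and Xrcc5 was called in no comparison. Each is the 250 bases before the transcription start in RefSeq on GRCm38.p6, 5′ to 3′ on the gene's strand. Capitals mark exact matches, on either strand, to GCGGGAA or GCGCGAA (forms of the E2F site), TTTGAA (the cell cycle homology region) or CCAAT (bound by NF-Y). In Rnf8 a CCAAT and a TTTGAA overlap.
Fancb (chrX:164980342-164980591, plus strand): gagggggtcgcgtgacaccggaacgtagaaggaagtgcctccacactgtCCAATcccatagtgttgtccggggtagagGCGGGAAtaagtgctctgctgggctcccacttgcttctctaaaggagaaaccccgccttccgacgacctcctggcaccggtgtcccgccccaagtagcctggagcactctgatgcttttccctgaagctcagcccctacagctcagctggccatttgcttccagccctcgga
Rnf8 (chr17:29614539-29614788, plus strand): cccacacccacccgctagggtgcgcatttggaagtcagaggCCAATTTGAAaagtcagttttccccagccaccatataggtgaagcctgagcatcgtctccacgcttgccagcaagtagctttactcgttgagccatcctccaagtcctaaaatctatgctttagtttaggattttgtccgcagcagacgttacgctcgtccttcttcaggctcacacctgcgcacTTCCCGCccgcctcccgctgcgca
Traip (chr9:107950713-107950962, plus strand): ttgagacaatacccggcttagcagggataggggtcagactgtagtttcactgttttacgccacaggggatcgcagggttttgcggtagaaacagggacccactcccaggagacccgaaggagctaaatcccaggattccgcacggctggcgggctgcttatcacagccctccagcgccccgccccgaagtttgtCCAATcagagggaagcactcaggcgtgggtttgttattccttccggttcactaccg
Atr (chr9:95857347-95857596, plus strand): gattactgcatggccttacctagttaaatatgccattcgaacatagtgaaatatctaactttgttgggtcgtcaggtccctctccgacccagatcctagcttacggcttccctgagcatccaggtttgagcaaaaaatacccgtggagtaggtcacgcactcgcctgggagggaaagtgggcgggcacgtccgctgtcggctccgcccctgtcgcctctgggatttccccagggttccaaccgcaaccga
Xrcc4 (chr13:90089609-90089858, minus strand): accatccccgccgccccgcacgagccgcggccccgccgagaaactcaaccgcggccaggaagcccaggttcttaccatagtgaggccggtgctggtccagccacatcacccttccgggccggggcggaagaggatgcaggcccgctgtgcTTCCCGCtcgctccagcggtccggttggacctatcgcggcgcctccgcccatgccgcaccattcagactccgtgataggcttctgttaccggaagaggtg
Xrcc5 (chr1:72307171-72307420, plus strand): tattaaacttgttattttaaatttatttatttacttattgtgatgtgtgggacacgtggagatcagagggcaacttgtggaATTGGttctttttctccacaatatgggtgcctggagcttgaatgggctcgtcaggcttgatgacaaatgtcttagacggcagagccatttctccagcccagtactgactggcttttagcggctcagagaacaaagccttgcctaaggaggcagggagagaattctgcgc

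Over the 300 bases from 250 before to 50 after the start, RefSeq sequences were matched for 34 members, and Rad54b, Xrcc2, Tonsl, Fancd2 and Exo1 were not matched. At least one E2F form was found at 17 of the 34 members, 50% of them, against 6.86% of all 27025 genes with such a sequence. CCAAT was found at 19 members, 55.9%, against 41.1% of all genes, and TTTGAA at 4 members, 11.8%, against 20.2%. Traip holds its TTTGAA within the 50 bases after the start, which are not printed. The median log2 fold change in 3D WT against 2D WT was -0.71 for the 17 members with an E2F form and -0.65 for the 17 without, and in the libraries labelled 3D Cxcl5-/- against 2D Cxcl5-/- it was -0.83 and -1.29. For CCAAT the medians were -0.81 with it and -0.45 without in 3D WT, and -1.29 and -0.64 in the labelled libraries. Among members with an E2F form, Xrcc4 and Fancg alone were not lower in 3D WT than in 2D WT. Of those with none of the 4 motifs, Parp1, Lig3, Ung, Parp2 and Neil3 were lower there and Atr was higher. A match of letters is a description of the sequence and not a site of binding.

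Per kilobase of exon, the mean levels in 2D WT ran from 1.28 CPM for Rad51c and 1.42 CPM for Fancg to 35.7 CPM for Parp1 and 49.3 CPM for Msh6, so the members differed widely in how much signal stood behind them.

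**Figure D1:**
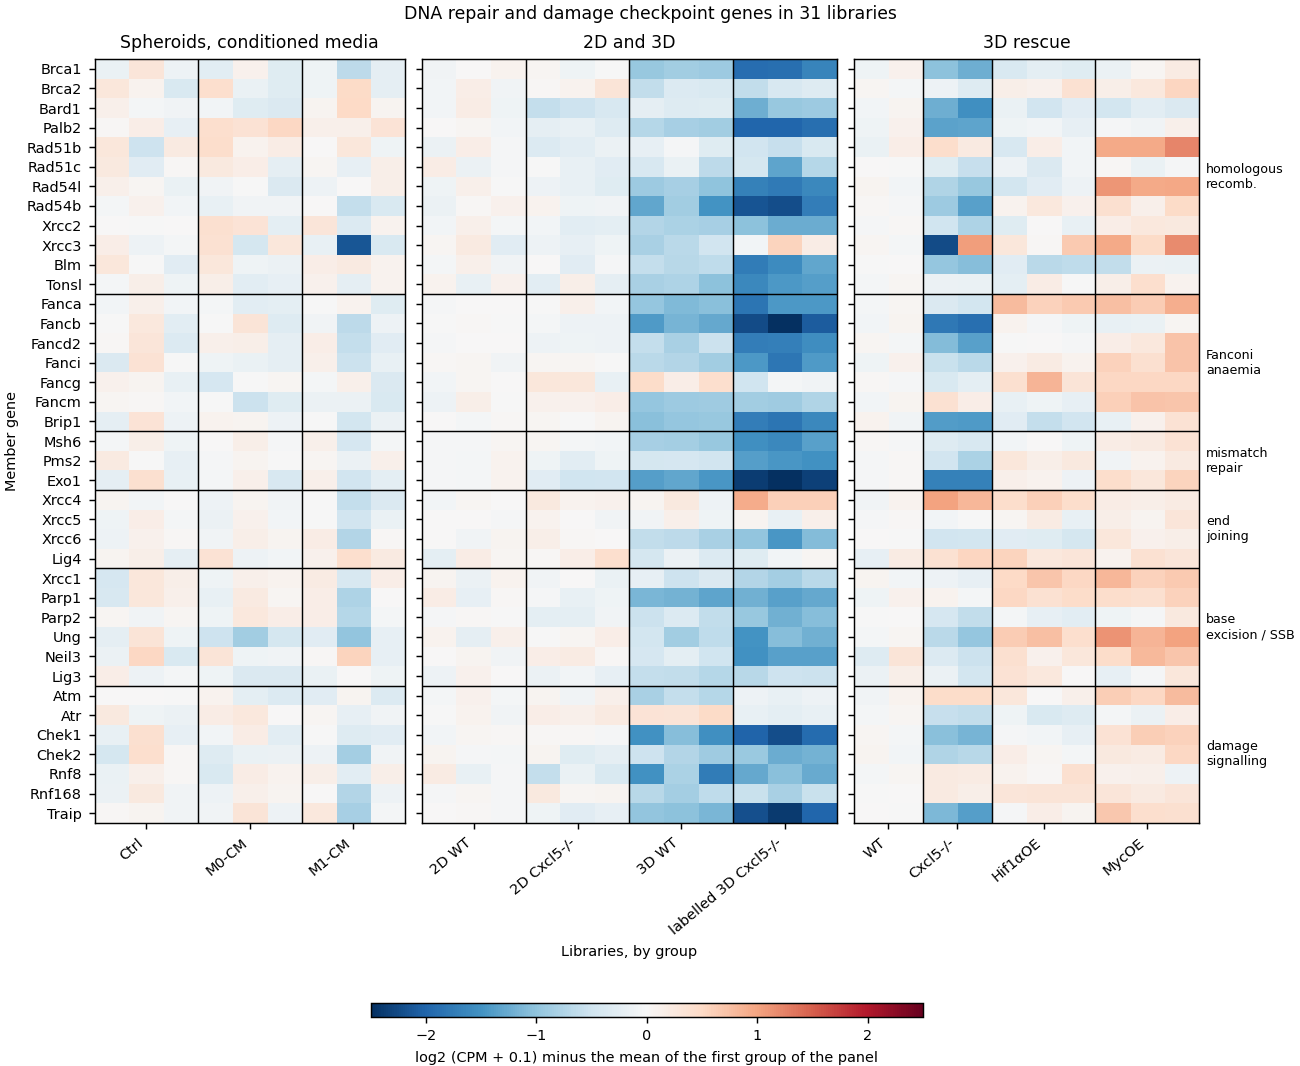
Level of each member gene (rows, by class) in each of the 31 libraries (columns, by group), as log2 CPM, with a small constant added, minus the mean of the first group of each panel (Ctrl, 2D WT and rescue WT). Blue is lower and red higher: in the 2D and 3D panel the 3D columns are blue in most rows, with 33 members below every 2D WT library in 3D WT, as were 27.5% of all genes tested.

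Most of the DNA repair genes were lower in 3D than in 2D culture of WT cells. Of the 39 members, 32 were called lower and 1 higher when 3D WT was set against 2D WT at an adjusted p under 0.05 (edgeR's quasi-likelihood test), where 22% of the 21367 genes tested were called lower and 22.2% higher. The members' median log2 fold change was -0.71, against 0.00 over all genes tested. In 33 members every 3D WT library lay below every 2D WT library, in 2 every one lay above, and in 4 the groups overlapped, where 27.5% of all genes tested lay wholly below and 26.8% wholly above.

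In homologous recombination 10 of 12 genes were called lower, with a median of -0.73 on the log2 scale. Rad54b, a motor protein that drives strand exchange, was at 26.8, 30.0 and 32.0 CPM in 2D WT and at 12, 16.2 and 10.3 CPM in 3D WT. Its log2 fold change of -1.21 ± 0.16 (SE, adjusted p = 3.8e-05) was the largest fall of the class, although 35.8% of its exon bases are shared with another gene on the same strand, so that its counts may hold reads of both. Brca1, which starts the processing of a broken end together with its partner Bard1, went from 88.8, 95.1 and 100.7 CPM to 48.9, 51.6 and 50.4 CPM. Bard1 moved far less, from 36.3, 43.4 and 35.7 CPM to 32.7, 30.7 and 31.2 CPM, and its log2 fold change of -0.29 ± 0.10 (adjusted p = 0.037) lost its call when any 1 of the 6 libraries was left out. The others called lower were Palb2, which joins Brca1 to Brca2, Brca2 itself, which loads the recombinase, the motor protein Rad54l, the recombinase paralogs Xrcc2 and Xrcc3, the helicase Blm and the fork repair factor Tonsl, with log2 fold changes between -0.93 and -0.45. Xrcc3 lost its call without the second 2D WT library. The paralogs Rad51b and Rad51c were not called, at -0.18 ± 0.13 and -0.41 ± 0.21.

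In the Fanconi anaemia pathway 6 of 7 genes were called lower, with a median of -0.93. Fancb, a subunit of the core ubiquitin ligase, was at 35.1, 35.9 and 35.2 CPM in 2D WT and at 13.2, 15.7 and 14.6 CPM in 3D WT. The 2 groups lay far apart, and its log2 fold change was -1.29 ± 0.11 (adjusted p = 7.6e-07). Fanca of the same core complex, Fancm, which anchors the complex on DNA, Brip1, a helicase, and Fancd2 and Fanci, the pair of proteins that the complex marks with ubiquitin, had log2 fold changes between -1.03 and -0.64. Fancg, also a core subunit, was the exception, with 5.14, 5.60 and 5.41 CPM in 2D WT and 7.48, 6.03 and 7.19 CPM in 3D WT. These 2 groups did not overlap, yet the change of 0.36 ± 0.17 was not called (adjusted p = 0.11).

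All 3 mismatch repair genes were called lower. Exo1, the exonuclease that removes the mispaired strand, had the largest fall of all 39 members, from 66.0, 65.1 and 71.8 CPM in 2D WT to 26.0, 27.2 and 24.5 CPM in 3D WT (log2 fold change -1.39 ± 0.09, adjusted p = 4.6e-08). Msh6, which recognizes the mismatch, and the endonuclease Pms2 changed by -0.87 ± 0.08 and -0.45 ± 0.08. In base excision and single-strand break repair all 6 genes were called lower. Parp1, the main sensor of single-strand breaks, went from 213, 162 and 192 CPM to 85.2, 82.7 and 75.0 CPM, with a log2 fold change of -1.22 ± 0.10 (adjusted p = 4.2e-07). Its relative Parp2, the uracil glycosylase Ung, the glycosylase Neil3 and the ligase Lig3 changed less, and the scaffold Xrcc1 least, from 36.6, 31.7 and 37.0 CPM to 30.6, 24.3 and 27.2 CPM (-0.36 ± 0.10, adjusted p = 0.010). The call of Xrcc1 was lost without the first or last 2D WT or the second 3D WT library, and that of Neil3 without the last 3D WT library.

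In end joining 1 of 4 genes was called. Xrcc6, which encodes one subunit of the Ku ring that clamps broken ends, went from 67.0, 62.5 and 69.3 CPM to 43.2, 42.3 and 37.9 CPM, a log2 fold change of -0.69 ± 0.11 (adjusted p = 0.00014). Xrcc5, which encodes the other subunit of that ring, was at 36.7, 36.8 and 35.5 CPM in 2D WT and at 34.2, 39.5 and 33.6 CPM in 3D WT. Its change was -0.02 ± 0.10 (adjusted p = 0.87), and the difference between the 2 subunits' changes was not tested. Xrcc4 and Lig4, the partners of the final ligation step, changed by 0.06 ± 0.12 and -0.32 ± 0.16 and were not called.

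In damage signalling 6 of 7 genes were called lower, and the kinases Atm and Atr moved in opposite directions. Atm, which answers double-strand breaks, was at 126, 141 and 126 CPM in 2D WT and at 74.0, 87.1 and 79.4 CPM in 3D WT (log2 fold change -0.71 ± 0.09, adjusted p = 1.7e-05). Atr, which answers single-stranded DNA at stalled forks, was at 112, 121 and 108 CPM and at 143, 142 and 158 CPM (0.38 ± 0.08, adjusted p = 0.0011). Neither kinase's groups overlapped, and Atr was not called when library totals replaced TMM scaling. Chek1, the kinase that acts below Atr, fell more than any other of the class, from 40.3, 43.7 and 43.4 CPM to 14.9, 20.2 and 14.6 CPM (-1.36 ± 0.12, adjusted p = 8.1e-07). Chek2, which acts below Atm, changed by -0.71 ± 0.13.

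The 3 ubiquitin ligases of the class were also called lower. Rnf8, which marks the chromatin around a break, was at 30.8, 23.4 and 26.0 CPM in 2D WT and at 9.27, 15.3 and 7.82 CPM in 3D WT (log2 fold change -1.31 ± 0.21, adjusted p = 0.00017). Its libraries were the most scattered of the 3 ligases, and 13.2% of its exon bases are shared with another gene model on its strand. Traip, which acts on the replication machinery at blocked forks, was at 31.9, 32.6 and 31.2 CPM and at 16.1, 15.6 and 14.4 CPM (-1.05 ± 0.11, adjusted p = 2.7e-06). Rnf168, which extends the mark made by Rnf8, changed by -0.73 ± 0.09.

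**Figure D2:**
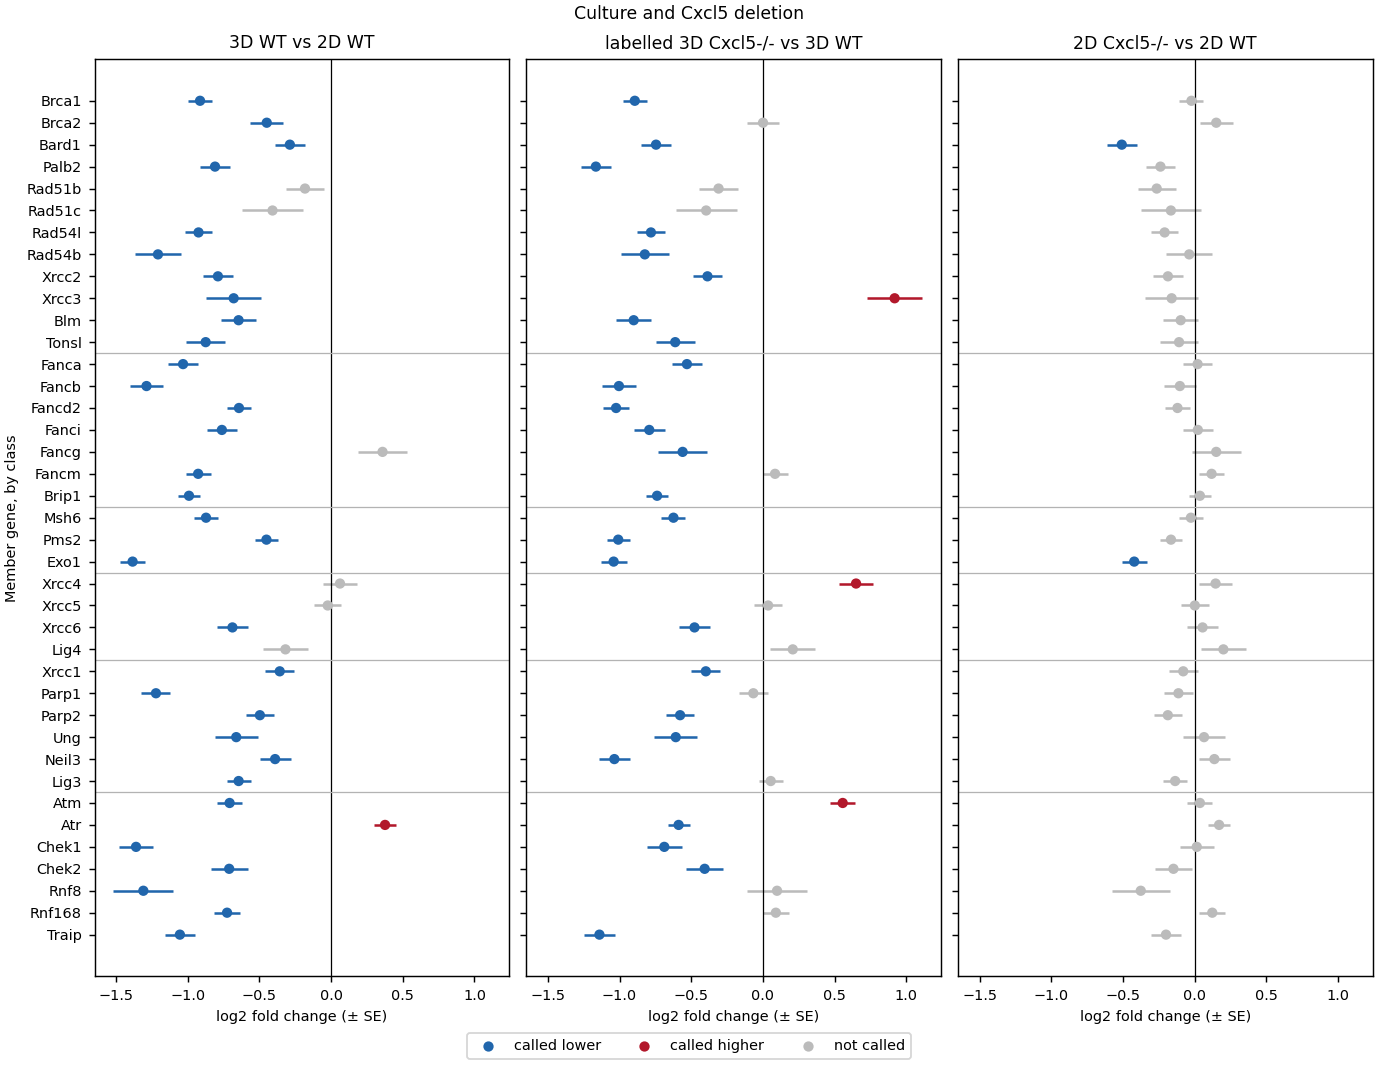
Log2 fold change with its SE (x axis) of each member gene (y axis, grouped by class) for 3D WT against 2D WT, the libraries labelled 3D Cxcl5-/- against 3D WT, and 2D Cxcl5-/- against 2D WT; blue and red mark adjusted p under 0.05. Members called lower number 32, 26 and 2 in the 3 panels, and in the end joining rows Xrcc6 is called lower in the first 2 panels and Xrcc4 higher in the second.

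The libraries labelled 3D Cxcl5-/- were lower again than 3D WT for most members. In this comparison 26 members were called lower and 3 higher, where 25.3% of all genes tested were called lower and 19.7% higher, and the members' median log2 fold change was -0.58 against -0.04 over all genes. Both comparisons use the same 3D WT libraries, so their values are set side by side and not counted as separate evidence. TMM factors were 0.820 to 0.912 in 3D WT and 1.01 to 1.23 in the libraries labelled 3D Cxcl5-/-. With library totals in place of TMM the median of all genes moved to 0.35, 12 members were called lower and 10 higher (11.4% and 35.9% of all genes), and the members' median was -0.20, which is 0.55 below that of all genes as against 0.54 below it with TMM. The 14 calls lost there were those of Atr, Bard1, Chek1, Chek2, Fanca, Fancg, Msh6, Parp2, Rad54b, Tonsl, Ung, Xrcc1, Xrcc2 and Xrcc6. Without a filter on low counts Chek2, Fancg, Xrcc1 and Xrcc2 lost their calls.

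The Fanconi anaemia and mismatch repair genes were again nearly all lower, with 6 of 7 and 3 of 3 called. Fancb stood at 7.46, 5.89 and 8.31 CPM with that label, against 13.2 to 15.7 CPM in 3D WT (log2 fold change -1.004 ± 0.12, adjusted p = 1.1e-05). Fancd2 fell from 26.9, 23.5 and 28.4 CPM to 12.4, 12.4 and 14.0 CPM (-1.02 ± 0.09, adjusted p = 7.7e-07) and had the largest change of the class. Fancg, which had not fallen with culture, was called lower here (-0.56 ± 0.17, adjusted p = 0.017) but not without the first of the labelled libraries. Fancm, which had fallen with culture, was at 17.2, 17.8 and 18.1 CPM in 3D WT and overlapped with the labelled libraries at 18.3, 18.0 and 20.0 CPM (0.09 ± 0.09). Exo1 stood at 13.0, 11.4 and 13.3 CPM, down from 24.5 to 27.2 CPM (-1.04 ± 0.09, adjusted p = 8.8e-07), and Pms2 at 15.8, 15 and 14.4 CPM, down from 29.6 to 30.7 CPM (-1.01 ± 0.08).

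Homologous recombination had 8 members called lower and 1 higher. Palb2 went from 9.19, 8.41 and 8.19 CPM to 3.74, 3.73 and 4.03 CPM, and its log2 fold change of -1.17 ± 0.10 (adjusted p = 1.2e-06) was the largest fall of the 39 members. Its partners differed: Brca1 fell by 0.89 ± 0.09 on the log2 scale, while Brca2 stood at 28.9, 33.8 and 35.7 CPM against 29.1, 35.3 and 34.1 CPM in 3D WT, a change of 0.00 ± 0.11. Xrcc3 was higher, with 4.72, 7.35 and 5.65 CPM against 2.77, 3.06 and 3.52 CPM (0.92 ± 0.19, adjusted p = 0.0015). In the rescue matrix the 2 Cxcl5-/- libraries held Xrcc3 at 0.540 and 6.07 CPM, on either side of both WT libraries at 3.02 and 2.78 CPM, and the gene was not called there.

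In base excision and single-strand break repair 4 of 6 genes were called lower, led by Neil3, which went from 10.4, 11.8 and 9.91 CPM to 4.83, 5.44 and 5.39 CPM (-1.04 ± 0.11, adjusted p = 5.6e-06). Parp1, at 81.6, 73.1 and 77.2 CPM in the labelled libraries, overlapped with 3D WT (-0.07 ± 0.10, adjusted p = 0.62), and Lig3 changed by 0.05 ± 0.08. In end joining Xrcc4 was called higher, at 31.1, 24.5 and 24.6 CPM against 17.1, 19.2 and 14.9 CPM in 3D WT (0.65 ± 0.12, adjusted p = 0.00054), and Xrcc6 lower (-0.48 ± 0.11, adjusted p = 0.0028). All 3 labelled libraries held more Xrcc4 than any 3D or 2D WT library. Xrcc5, at 38.3, 32.1 and 39.6 CPM, overlapped with 3D WT (0.04 ± 0.10).

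The damage kinases again moved apart, each now against its direction in 3D WT. With the 3D Cxcl5-/- label Atm stood at 119, 115 and 119 CPM, above the 74.0 to 87.1 CPM of 3D WT (0.56 ± 0.09, adjusted p = 0.00017). Atr stood at 100, 95.6 and 99.4 CPM, below the 142 to 158 CPM of 3D WT (-0.59 ± 0.08, adjusted p = 3.3e-05). With library totals Atm was still called higher, and Atr was still lower (-0.20) without a call. Traip had the largest fall of the class, to 6.86, 6 and 8.05 CPM (-1.14 ± 0.11, adjusted p = 2.1e-06), and Chek1 and Chek2 were called lower as well, at -0.69 ± 0.12 and -0.41 ± 0.13. Chek2 lost its call without the first 3D WT library or either of the last 2 labelled ones. Rnf8, at 10.8, 12.8 and 11 CPM, lay within the range of 3D WT (0.10 ± 0.21, adjusted p = 0.73), and Rnf168 changed by 0.09 ± 0.09.

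**Figure D3:**
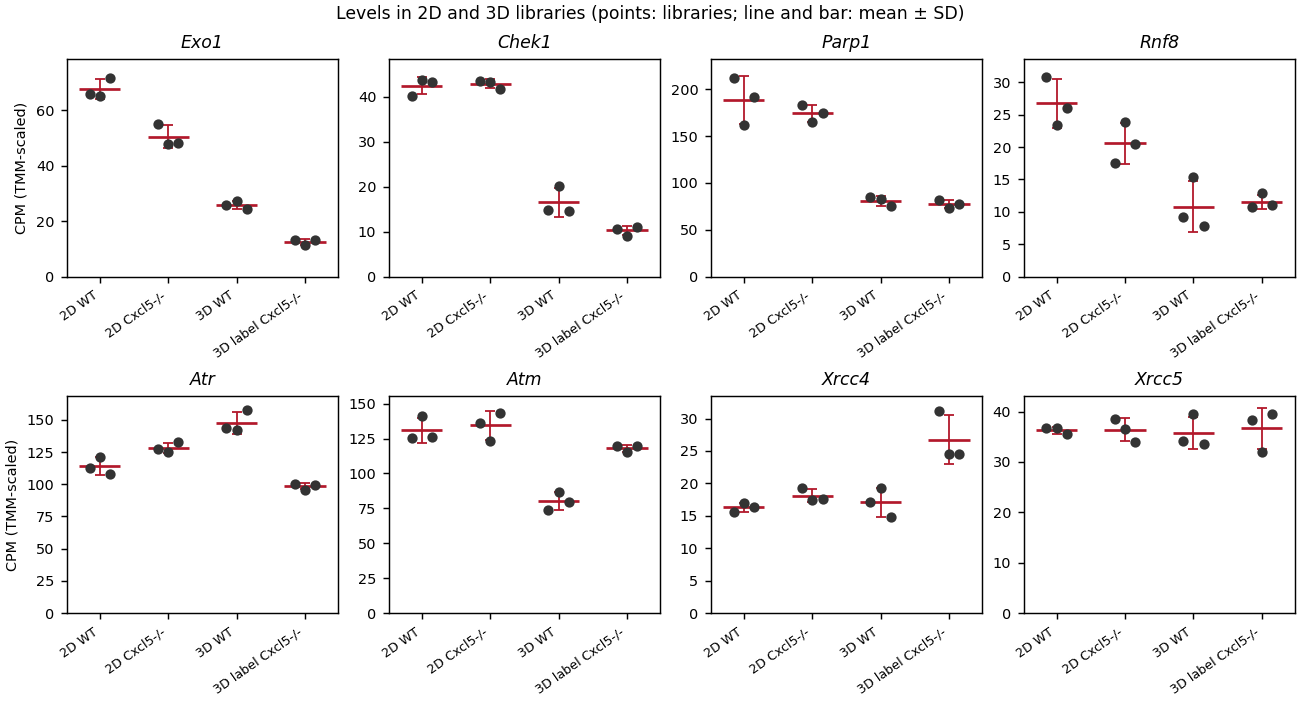
CPM after TMM scaling (y axis, from 0) of 8 members in the 2D WT, 2D Cxcl5-/-, 3D WT and labelled 3D Cxcl5-/- libraries (x axis); points are libraries, the red line and bar the mean ± SD of 3. Exo1 and Chek1 are lower in 3D WT and lower again in the labelled 3D Cxcl5-/- libraries, Atr and Atm move in opposite directions wherever 3D WT is compared, and the 4 groups of Xrcc5 lie between 32.1 and 39.6 CPM.

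In 2D culture few genes of any kind differed between the genotypes, members included. Bard1 and Exo1 were the 2 members called lower, and none was called higher by edgeR in 2D Cxcl5-/- against 2D WT, where 3.17% of all genes tested were called lower and 3.86% higher. Bard1 was at 25.3, 26.9 and 29.1 CPM against 36.3, 43.4 and 35.7 CPM (-0.51 ± 0.10, adjusted p = 0.0077). Exo1 was at 55.2, 48.0 and 48.3 CPM against 65.1 to 71.8 CPM (-0.42 ± 0.09, adjusted p = 0.0087). Each lost its call when certain single libraries were left out, Bard1 without the second WT or first Cxcl5-/- library and Exo1 without the last WT library or either of the last 2 Cxcl5-/- libraries. At 16 members higher and 23 lower, the signs were mixed, and the members' median was -0.08. Traip and Rnf8 changed by -0.20 ± 0.10 and -0.38 ± 0.20 without a call.

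The difference between the responses to 3D culture under the 2 genotype labels was tested as the interaction of genotype and culture. It called 21 members lower and 3 higher, where 16.1% of all genes tested were called lower and 11.1% higher. Against 2D Cxcl5-/-, the libraries labelled 3D Cxcl5-/- had 32 members called lower (28.2% of all genes) and 1, Xrcc4, called higher (28.7% of all genes), with a members' median of -1.18. Fancb went from 34.1, 32.3 and 32.6 CPM to 7.46, 5.89 and 8.31 CPM, a log2 fold change of -2.19 ± 0.12 as against -1.29 in WT. Neil3 had the largest interaction among the falls, -1.17 ± 0.15 (adjusted p = 0.00011), and Xrcc3 the largest in the other direction, 1.08 ± 0.27 (adjusted p = 0.0091). Atm (0.52 ± 0.12) and Atr (-0.76 ± 0.11) were both called with opposite signs. In the libraries labelled 3D Cxcl5-/- both kinases were lower than in 2D Cxcl5-/-, Atm at 115 to 119 against 123 to 144 CPM without a call (-0.19 ± 0.09, adjusted p = 0.081) and Atr at 95.6 to 100 against 125 to 133 CPM (-0.38 ± 0.08, adjusted p = 0.00072). Parp1, Rnf8, Rnf168, Brca2, Fancm and Xrcc5 were not called, with interactions between -0.15 and 0.47. With library totals the interaction called 10 members lower and 5 higher (6.36% and 21.5% of all genes).

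In the rescue matrix WT and Cxcl5-/- cells in 3D were sequenced in other libraries. There 22 members were called lower and 2 higher in Cxcl5-/- than in WT, where 24.3% of all genes tested were called lower and 17.6% higher. The members' median was -0.48 and that of all 28730 genes -0.30, and with only the 16095 genes that had at least 10 counts in every library these medians were -0.58 and -0.01. Without a filter they were -0.47 and -1.18, so that the order of the medians depended on how many genes of low counts were included. Set beside the libraries labelled 3D Cxcl5-/-, 34 of 39 members had the same sign in both matrices, 22 were called lower in both and 2, Xrcc4 and Atm, higher in both. No member was called in opposite directions. Of the 20243 genes tested in both matrices, 76.8% had the same sign, 15.6% were called lower in both, 14.2% higher in both and 1.29% in opposite directions.

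The largest change was in the core Fanconi anaemia gene Fancb, from 10.4 and 11.6 CPM in WT to 3.09 and 2.90 CPM in Cxcl5-/- (-1.87 ± 0.15, adjusted p = 3.9e-06). Exo1 went from 18.4 and 19.1 CPM to 5.75 and 5.73 CPM (-1.71 ± 0.13, adjusted p = 2.3e-06). In homologous recombination 7 of 12 were called lower, led by Bard1, from 25.6 and 27.8 CPM to 11.5 and 9.20 CPM (-1.37 ± 0.14, adjusted p = 2.2e-05). All 3 mismatch repair genes, 5 of 7 Fanconi anaemia genes and 4 of 7 signalling genes were called lower, Traip among them (-1.27 ± 0.16, adjusted p = 8.9e-05). Msh6 had the smallest of the mismatch repair changes (-0.36 ± 0.09, adjusted p = 0.0076), and its call was lost without the first WT or the second Cxcl5-/- library. Fancm and Tonsl, at 0.27 ± 0.11 and -0.16 ± 0.17, were not called.

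Ung and Parp2 were the 2 of 6 base excision genes called lower, Ung from 4.96 and 5.37 CPM to 3.2 and 2.58 CPM (-0.84 ± 0.19, adjusted p = 0.0046), and both calls were lost without the second Cxcl5-/- library. Parp1 was at 45.6 and 53.3 CPM in WT and at 52.2 and 47.5 CPM in Cxcl5-/- (0.01 ± 0.10). Xrcc4 was at 20.5 and 23.2 CPM in WT and at 43.7 and 38.8 CPM in Cxcl5-/-, without overlap (0.92 ± 0.10, adjusted p = 4.5e-05), while Xrcc6 fell by 0.47 ± 0.10 on the log2 scale and Xrcc5 changed by -0.04 ± 0.13. Atm was again the higher of the kinases in Cxcl5-/- (0.46 ± 0.12, adjusted p = 0.0095) and Atr the lower (-0.60 ± 0.12, adjusted p = 0.0021), although Atm lost its call without the first WT or the first Cxcl5-/- library. Rnf8, at 16.8 and 16.7 CPM against 13.9 and 15 CPM, was not called (0.21 ± 0.14).

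Most members were higher when Hif1α or Myc was overexpressed in Cxcl5-/- cells. Against Cxcl5-/-, Hif1αOE Cxcl5-/- had 27 members called higher and 3 lower (20.5% and 15% of all genes tested), and MycOE Cxcl5-/- had 29 called higher and 1 lower (21.6% and 18% of all genes). The members' medians were 0.51 and 0.73, against 0.16 and 0.11 over all genes. Both comparisons, and that of Cxcl5-/- with WT, use the same 2 Cxcl5-/- libraries, so high or low values in those libraries enter all 3. With library totals 17 members were called higher and 4 lower with Hif1α (15.1% and 19.5% of all genes) and 21 higher and 4 lower with Myc (14.9% and 26%), and without the second Cxcl5-/- library 18 were called higher with Hif1α.

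Exo1 had the largest rise in MycOE Cxcl5-/-, at 25.5, 22.9 and 27.5 CPM against 5.75 and 5.73 CPM in Cxcl5-/- (2.14 ± 0.12, adjusted p = 3.3e-07), and stood at 20.5, 19.8 and 17.3 CPM in Hif1αOE Cxcl5-/- (1.74 ± 0.12, adjusted p = 1.6e-06). Fancb had the largest rise in Hif1αOE Cxcl5-/-, at 11.6, 10.8 and 10.2 CPM (1.86 ± 0.14, adjusted p = 3.2e-06), and a like level with Myc, at 9.67, 9.79 and 11.3 CPM. The WT libraries held Fancb at 10.4 and 11.6 CPM. Ung rose to 8.06, 8.77 and 6.90 CPM with Hif1α and to 11.3, 9.33 and 10.5 CPM with Myc, above both WT libraries in every case (1.45 ± 0.18 and 1.85 ± 0.18). Traip rose by 1.34 ± 0.15 and 1.78 ± 0.15 on the log2 scale, while Rnf8 changed by -0.03 ± 0.13 and -0.18 ± 0.13 and Rnf168 by 0.12 ± 0.07 and 0.08 ± 0.07 without a call.

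All 6 base excision genes were called higher with Hif1α and 5 of 6 with Myc, among them Parp1 and Xrcc1, which were not called in rescue Cxcl5-/- against WT. Without the second Cxcl5-/- library, and likewise with library totals, the calls of Lig3, Neil3, Parp1 and Parp2 with Hif1α were lost, which left Ung and Xrcc1. Parp1 reached 70.7, 64.6 and 67.9 CPM with Hif1α and 66.5, 65.3 and 73.7 CPM with Myc, against 47.5 and 52.2 CPM in Cxcl5-/- and 45.6 and 53.3 CPM in WT. Every overexpressing library lay above all 4 of those (0.44 ± 0.10 and 0.46 ± 0.10), but Parp1 was not called with library totals in either comparison. Xrcc4 moved the other way and was lower with each, at 29.4, 32.9 and 29.6 CPM with Hif1α (-0.43 ± 0.09, adjusted p = 0.0037) and at 24.9, 24.2 and 25.2 CPM with Myc (-0.74 ± 0.09, adjusted p = 7.0e-05). It was the 1 member called lower with Myc and stood beside Atm and Fancm as the 3 called lower with Hif1α. Without the first Cxcl5-/- library the call with Hif1α was lost for all 3.

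**Figure D4:**
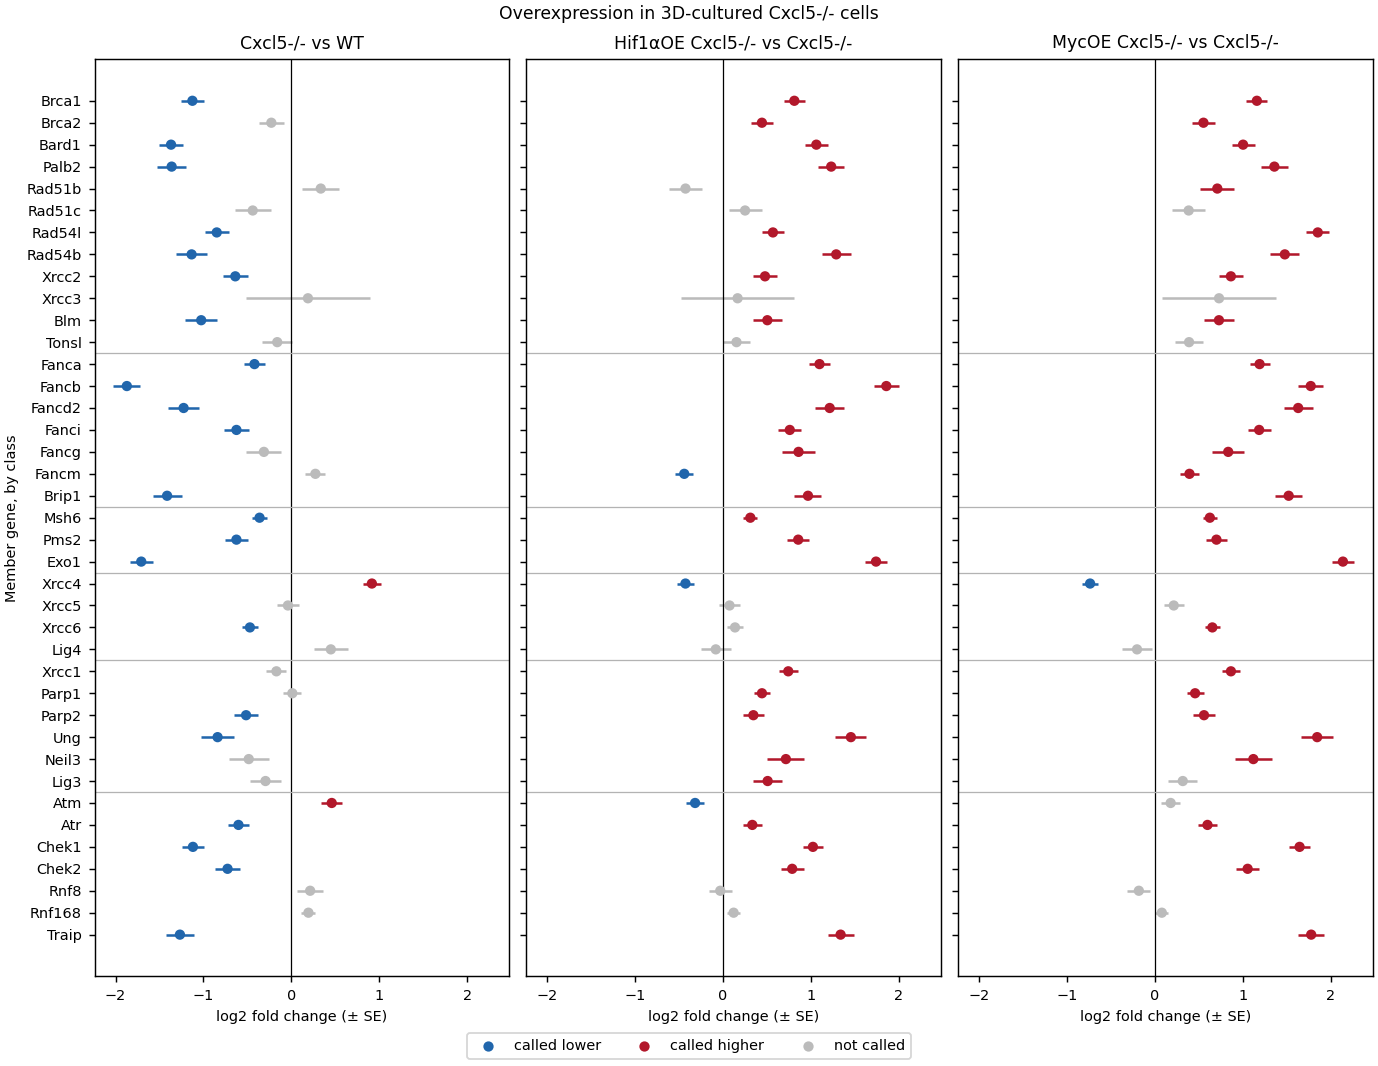
Log2 fold change with its SE (x axis) of each member (y axis, by class) in the rescue matrix for Cxcl5-/- against WT and for Hif1αOE Cxcl5-/- and MycOE Cxcl5-/- against Cxcl5-/-; blue and red mark adjusted p under 0.05. The panels hold 22 members called lower, 27 called higher and 29 called higher in turn, Xrcc4 is higher in the first and lower in the others, and Xrcc3 has wide bars because its Cxcl5-/- libraries lie at 0.540 and 6.07 CPM.

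The 2 overexpressing lines differed at 14 members, 13 called higher and 1 lower in MycOE Cxcl5-/- than in Hif1αOE Cxcl5-/- (9.54% and 9.73% of all genes tested). Without the last Hif1αOE library 8 were called higher, as Brca1, Exo1, Fanci, Traip and Xrcc2 lost their calls, and the 1 lower, Xrcc4, was lost without the second Hif1αOE or the first or second MycOE library. The largest differences were in homologous recombination. Rad54l was at 34.6, 30.8 and 31.2 CPM with Myc and at 11.7, 13.2 and 14.7 CPM with Hif1α (1.29 ± 0.11, adjusted p = 1.1e-05), and the WT libraries lay between, at 16.9 and 15.2 CPM. A gene on the opposite strand shares 15.4% of the exon bases of Rad54l, and the strand used in counting is not known. Rad51b was at 11, 11 and 13.4 CPM with Myc and at 4.29, 6.36 and 5.46 CPM with Hif1α (1.14 ± 0.17, adjusted p = 0.00077), and its WT level was 5.05 and 6.41 CPM. Rad51b had been called neither with culture nor with the deletion, and its rise over Cxcl5-/- with Myc was 0.71 ± 0.19 (adjusted p = 0.013), a call lost without the second Cxcl5-/- library.

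Fancm was the member called in opposite directions in the 2 overexpressing lines. It stood at 20.2 and 17.5 CPM in Cxcl5-/-, at 13.7, 14.4 and 13.5 CPM with Hif1α (-0.44 ± 0.10, adjusted p = 0.0053) and at 23.6, 25.4 and 25.2 CPM with Myc (0.39 ± 0.10, adjusted p = 0.0097). The Hif1α and Myc libraries did not overlap, and their difference was 0.84 ± 0.09 (adjusted p = 7.5e-05). The rise with Myc lost its call without the second Cxcl5-/- library and the fall with Hif1α lost its call without the first, so that the opposite calls needed both. With library totals the rise with Myc was 0.06 and not called, and the difference between the lines was still called. Atm also separated the lines, at 91.2, 74.8 and 81.0 CPM with Hif1α and 114, 107 and 128 CPM with Myc (0.50 ± 0.10, adjusted p = 0.0033), while Atr was at 110, 90.9 and 95.0 CPM and at 115, 107 and 133 CPM (0.27 ± 0.10, adjusted p = 0.082). Xrcc6 and Chek1 were higher with Myc as well (0.52 ± 0.08 and 0.63 ± 0.10), and Brca1, Xrcc2, Fanci, Brip1, Msh6, Exo1 and Traip had differences between 0.32 and 0.56. Of the 13 calls, 5 held with library totals: Rad51b, Rad54l, Fancm, Xrcc6 and Chek1.

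Against WT, fewer members were called. Hif1αOE Cxcl5-/- had 6 members called higher and 3 lower than WT (13.9% and 10.3% of all genes tested), and MycOE Cxcl5-/- had 16 higher and 1 lower (17.1% and 14.7%). The balance of calls with Hif1α turned with the scaling, for the members and for all genes. DESeq2's Wald test called 6 members higher and 9 lower (10.3% and 13.3% of all genes), its size factors gave 4 and 8 (8.99% and 13.2%), and library totals 2 and 6 (7.69% and 12.5%). The members' median went from 0.03 to -0.11 with DESeq2's size factors and -0.15 with library totals, while the median of all genes went from -0.10 to -0.24 and -0.27. With Myc the size factors gave 10 higher and 1 lower (13% and 17.8% of all genes) and library totals 6 higher and 2 lower (8.62% and 21.6%), and the members' median went from 0.27 to 0.15 and -0.02, while that of all genes went from -0.17 to -0.30 and -0.46. Fanca was at 29.2, 25.2 and 26.4 CPM with Hif1α and 28.3, 26.1 and 31.8 CPM with Myc, against 16.2 and 17.5 CPM in WT (0.68 ± 0.11 and 0.77 ± 0.11). Blm, Brip1 and Xrcc6 were the 3 called lower than WT with Hif1α, Blm at 15.3, 11.6 and 12 CPM against 18.4 and 18.8 CPM (-0.52 ± 0.16, adjusted p = 0.038). The 1 call below WT with Myc, Bard1 (-0.37 ± 0.12, adjusted p = 0.045), was lost when any single library of the 2 groups was left out. Without the first WT library MycOE Cxcl5-/- had 8 members called higher than WT, and Hif1αOE Cxcl5-/- had 2 called higher and 0 lower. No share of all genes is given for fits with a library left out, here or elsewhere.

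**Figure D5:**
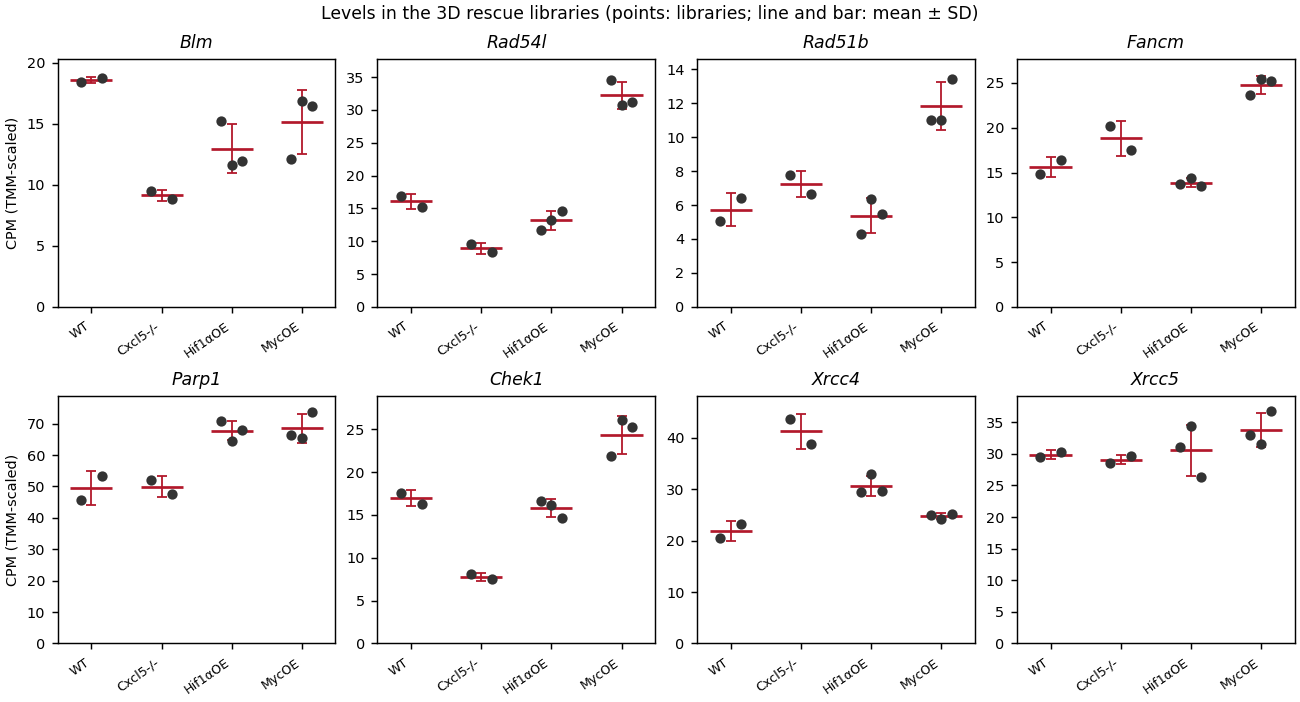
CPM after TMM scaling (y axis, from 0) of 8 members in rescue WT, Cxcl5-/-, Hif1αOE Cxcl5-/- and MycOE Cxcl5-/- libraries (x axis); points are libraries, the red line and bar the mean ± SD of 2 or 3. Rad54l and Rad51b are highest with Myc, Fancm is lower with Hif1α than with Myc, Parp1 is above WT with both, and Xrcc4 is highest in Cxcl5-/-.

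In the conditioned media almost no gene of the whole matrix was called, so that the absence of calls says little about the members. No member was called in M1-CM against Ctrl, in M1-CM against M0-CM or in M0-CM against Ctrl with edgeR, where 0.0156%, 0.0156% and 0% of the 19207 genes tested were called higher and 0% lower in each. At an unadjusted p under 0.05, 1 member was higher in M1-CM than in M0-CM and 0 in the other 2 comparisons. Of the 19207 genes, 586, 309 and 412 were higher at that threshold and 317, 189 and 157 lower, in the order above. DESeq2 called 0 members in all 3. It called 0.359%, 0.109% and 0.0729% of all genes higher and 0.146%, 0.0573% and 0.0156% lower, in that order. Log2 fold changes ran from -0.70 to 0.25 in M1-CM against Ctrl, from -0.82 to 0.47 in M1-CM against M0-CM and from -0.62 to 0.43 in M0-CM against Ctrl. In 37 members the M1-CM and Ctrl libraries overlapped, as they did in 91.5% of all genes tested, and 28 members were lower and 11 higher in M1-CM. Cxcl5, by contrast, was at 663, 719 and 662 CPM in M1-CM and at 78.1 to 117 CPM in Ctrl. The second M1-CM library stood apart for several members, with Xrcc3 at 1.13 CPM against 4.69 and 4.08 CPM in the others and Traip at 7.69 CPM against 16.5 and 13.3 CPM. Without it the comparisons still called 0 members.

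The genes of the same pathways that are no members were counted in the same way. Of all genes tested, 22% were called lower and 22.2% higher with culture in WT. The shares were 25.3% and 19.7% in the labelled libraries against 3D WT, and 24.3% and 17.6% in rescue Cxcl5-/- against WT. Of 22 other homologous recombination genes, 16 were called lower and 3 higher with culture in WT, 13 lower and 1 higher in the libraries labelled 3D Cxcl5-/- against 3D WT, and 13 lower and 2 higher in rescue Cxcl5-/- against WT. Of 11 other Fanconi anaemia genes 5 were called lower and 1 higher with culture, and of 5 other mismatch repair genes 4 were lower. Nucleotide excision repair, which removes bulky lesions and has no member here, had 4 of 13 genes called lower and 2 higher with culture, with a median of -0.15. Of the 7 other end joining genes 2 were lower and 1 higher, and of 13 other base excision genes tested 5 were lower and 1 higher. Of 11 other damage signalling genes tested 7 were called lower with culture and 0 higher. In the labelled libraries, 5 of the other Fanconi anaemia genes were called lower and 1 higher, 1 of the mismatch repair genes lower and 0 higher, 3 of the end joining genes lower and 3 higher, 1 of the base excision genes lower and 1 higher, 6 of the nucleotide excision genes lower and 2 higher, and 7 of the damage signalling genes lower and 1 higher. In rescue Cxcl5-/- the counts in the same order were 3 lower and 2 higher, 0 and 0, 0 and 3, 0 and 3, 3 and 3, and 4 and 2. Genes that p53 switches on after damage went the other way with culture, 10 of 17 called higher and 3 lower, and 12 were called lower and 3 higher in the libraries labelled 3D Cxcl5-/-, and 9 of 18 lower and 6 higher in rescue Cxcl5-/-.

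Markers of the cell cycle moved with the repair genes. For the calls below, the shares of all genes called in each comparison are those given above. All 15 of a list of replication and mitosis genes were called lower with culture in WT and again in the labelled 3D Cxcl5-/- libraries against 3D WT, 14 were lower in rescue Cxcl5-/- than in WT, and all 15 were called higher with Hif1α and with Myc. None of the 15 was at 0 in any library. Their summed level was 5388 to 5527 CPM in 2D WT, 4878 to 5031 CPM in 2D Cxcl5-/-, 2576 to 2663 CPM in 3D WT and 1323 to 1469 CPM in the libraries labelled 3D Cxcl5-/-. In the rescue matrix it was 2054 to 2090 CPM in WT, 847 to 916 CPM in Cxcl5-/-, 1868 to 2038 CPM with Hif1α and 2192 to 2451 CPM with Myc. Their part in the members' changes was not tested. The 6 ductal and epithelial markers summed to 538 to 588 CPM in 2D WT, 445 to 482 CPM in 2D Cxcl5-/-, 839 to 1084 CPM in 3D WT and 190 to 222 CPM in the libraries labelled 3D Cxcl5-/-, where 3 of the 4 tested were called lower than in 3D WT and 1 higher. In the rescue matrix they summed to 823 to 865 CPM in WT, 258 to 272 CPM in Cxcl5-/-, 687 to 820 CPM with Hif1α and 244 to 287 CPM with Myc, with 3 of the 5 tested called lower in Cxcl5-/- than in WT. Against 2D WT, 3 of the 4 tested were called higher and 1 lower in 3D WT. Between 0 and 3 of the 6 were at 0 in these libraries, and their part in the members' changes was not tested. A list of 6 fibroblast genes moved too, at 156 to 169 CPM in 3D WT and 396 to 453 CPM in the labelled libraries, and at 77.0 to 81.4 CPM in rescue WT and 458 to 466 CPM in rescue Cxcl5-/-. None of the 6 was at 0 in these libraries, 2 were called higher and 3 lower in the labelled 3D Cxcl5-/- libraries and 5 higher in rescue Cxcl5-/- than in WT. In 2D WT they summed to 171 to 185 CPM, with 0 to 1 at 0, and against it 3 were called higher and 1 lower in 3D WT. With Hif1α they summed to 136 to 173 CPM, with 5 called lower than in Cxcl5-/-, and with Myc to 312 to 343 CPM, with 3 called lower, and their part in the members' changes was not tested. The 7 macrophage markers summed to 28.0 to 76.7 CPM over all libraries, with up to 4 of them at 0. Their sum was 28.0 to 32.4 CPM in 2D WT and 42.2 to 46.5 CPM in 3D WT, where 4 of the 5 tested were called higher. In the rescue matrix it was 43.2 to 43.3 CPM in WT, 34.5 to 34.7 CPM in Cxcl5-/- with 3 of 6 called lower and 1 higher than in WT, 44.9 to 63.2 CPM with Hif1α and 59.7 to 76.7 CPM with Myc, with 2 called higher than in Cxcl5-/- in each and 1 lower with Myc, and their part in the members' changes was not tested. The 4 endothelial markers summed to 2.40 to 3.50 CPM in rescue WT and 0.325 to 0.332 CPM in rescue Cxcl5-/-, with 3 called lower there, and to at most 0.979 CPM in every other library, and their part was not tested either.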

How the data were processed

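RNA-seq of Panc02 cells was analysed in 31 libraries from 3 count matrices. The authors prepared stranded total RNA libraries, sequenced them in pairs, aligned the reads with HISAT2 to GRCm38 (mm10) and assembled them with StringTie. They also took read counts per transcript from StringTie, and the deposited values are raw counts per gene. The annotation release, the step from transcript to gene counts and the strand used in counting are not given in the sources used here, so counts of genes that share exon bases with a neighbour may hold reads of both. Exon bases shared with a gene on the opposite strand made up 25.1% of Lig3, 16.0% of Fanci, 15.4% of Rad54l and 10.5% of Fanca. Samples were grouped by their labels, 0 columns were left unused, and each matrix was fitted on its own.

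Genes were kept by edgeR's filterByExpr, scaled with TMM and tested with edgeR's quasi-likelihood test (edgeR 4.0.16, R 4.3.3) with all groups of a matrix in the fit. P-values were adjusted by the Benjamini-Hochberg method over all genes tested, and a gene was called at an adjusted p under 0.05. The SE is the absolute log2 fold change over the root of the F statistic. The test was also run on counts simulated from its own fit with few genes changed, which does not check the choice of scaling. Alternatives were DESeq2 1.42.0 and its size factors, library totals, other filters, the groups compared alone, a replicate block, an added fold limit and each library left out. The promoter sequences are RefSeq's on GRCm38.p6.

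The members and the lists were chosen with earlier results of these data known. The rule named, for each class and comparison, the called member with the largest change and the member with the smallest, with Rnf8 and Traip. Some of these, mainly in the comparisons with the overexpressing lines, are given by counts or ranges, and further members were named after their values were seen.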

Additional observations from a re-analysis of the deposited data

Results flagged for a closer look

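The difference between 3D and 2D culture was not the same under the 2 genotype labels at 24 of the 39 members by the interaction of genotype and culture (edgeR's quasi-likelihood test, adjusted p under 0.05), which sets the libraries labelled 3D Cxcl5-/- over 2D Cxcl5-/- against 3D WT over 2D WT. Of all genes tested, 16.1% were called lower and 11.1% higher by the same test. Negative values, on the log2 scale, mean a larger fall, or a smaller rise, under the Cxcl5-/- label. In homologous recombination the interaction was -0.87 for Brca1, -0.93 for Palb2, -0.57 for Rad54l, -0.79 for Rad54b, -0.80 for Blm and 1.08 for Xrcc3. Of the Fanconi anaemia genes, Fanca had -0.55, Fancb -0.90, Fancd2 -0.90, Fanci -0.82, Fancg -0.71 and Brip1 -0.77, so that Fancm was the 1 of 7 not called. The mismatch repair genes Msh6, Pms2 and Exo1 had -0.60, -0.84 and -0.62.

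In end joining Xrcc4 had 0.50 and Xrcc6 -0.53. In base excision Parp2 had -0.39, Ung -0.67 and Neil3 -1.17. In damage signalling Atm had 0.52, Atr -0.76, Chek1 -0.70 and Traip -0.94. Calls of 6 genes were lost when certain single libraries were left out: Fancg, Parp2 and Xrcc4 in 9 of the 12 cases each, Ung in 4, Rad54b without the first 2D Cxcl5-/- or the second labelled 3D Cxcl5-/- library, and Xrcc6 without the first 2D Cxcl5-/- library. With library totals in place of TMM 11 of the 24 calls were lost, those of Blm, Chek1, Exo1, Fanca, Fancg, Msh6, Parp2, Rad54b, Rad54l, Ung and Xrcc6. Without a filter on low counts 7 were lost, those of Fanca, Fancg, Parp2, Rad54b, Rad54l, Ung and Xrcc6. The Cxcl5 level of the libraries labelled 3D Cxcl5-/- goes against their label, and every one of these values rests on them. Their Hif1a and Myc levels, given above, were below those of 3D WT. The label names only culture and genotype and gives no level of either gene, so Hif1a and Myc do not check it.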

How the results depend on the processing

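Here 3D Cxcl5-/- stands for the libraries with that label. The shares of all genes tested that were called the same way are given in brackets. DESeq2's Wald test called 2 members higher in 3D WT against 2D WT (24.9%), 2 higher in 3D against 2D Cxcl5-/- (31.3%) and 9 lower in Hif1αOE Cxcl5-/- than in WT (13.3%). With DESeq2's size factors the last 2 counts were 2 (31.1%) and 8 (13.2%), and 10 members were higher in MycOE Cxcl5-/- than in WT (13%). With library totals the counts were 0 higher in 3D WT against 2D WT (16.7%), 1 lower in 2D Cxcl5-/- (2.48%), 10 higher and 12 lower in 3D Cxcl5-/- against 3D WT (35.9% and 11.4%), 2 higher in 3D against 2D Cxcl5-/- (32.9%), and 5 higher and 10 lower for the interaction (21.5% and 6.36%). In the rescue matrix they were 17 higher with Hif1α (15.1%) and 4 lower with Myc (26%) against Cxcl5-/-, 5 higher with Myc than Hif1α (6.9%), 2 higher and 6 lower with Hif1α against WT (7.69% and 12.5%), and 6 higher and 2 lower with Myc against WT (8.62% and 21.6%). With library totals Msh6 also turned to -0.025 and Rnf168 to -0.019 with Myc against WT, and Xrcc5 turned to 0.0051 in rescue Cxcl5-/- and to -0.16 and -0.12 with Hif1α and Myc. Xrcc5 in 3D WT against 2D WT turned to 0.045 with the Wald test, 0.046 with DESeq2's size factors, 0.0081 with at least 10 counts in every sample and 0.011 with the groups compared alone, which called 2 members higher there (24.5%). Without a filter 1 member was lower with Hif1α (2.98%) and 0 with Myc (4.84%) against WT. With at least 10 counts in every sample 2 were higher in 3D against 2D Cxcl5-/- (34.3%). Against WT 8 were then lower with Hif1α (16.5%), and 10 higher and 2 lower with Myc (22.5% and 20.7%). The cause was not tested.

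With an absolute log2 fold change above 1 also required, 0 were higher and 8 lower in 3D WT against 2D WT, 0 lower in 2D Cxcl5-/-, 0 and 7 in 3D Cxcl5-/- against 3D WT, 0 and 20 against 2D Cxcl5-/-, 1 and 1 for the interaction, 0 and 11 in rescue Cxcl5-/-, 10 and 0 with Hif1α, 16 and 0 with Myc, 2 and 0 between Myc and Hif1α, 0 and 0 with Hif1α against WT and 3 and 0 with Myc against WT. The share of all genes that pass this limit is not given, so these counts cannot be set against that of all genes. Samples shared only a number, with a mean correlation of 0.0369, 0.0247 and 0.00408 in the 3 matrices. The replicate block left 0 members lower with Myc against WT (10.7% of all genes tested), 19 lower for the interaction (16.8%) and 25 higher with Hif1α (20.4%).

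Leaving out single libraries gave 2 to 4 higher and 16 to 21 lower for the interaction, 1 to 2 lower in 2D Cxcl5-/-, 1 to 2 higher in 3D against 2D Cxcl5-/-, 1 to 2 higher in rescue Cxcl5-/-, 18 to 26 higher and 0 to 3 lower with Hif1α, 8 to 13 higher and 0 to 1 lower between Myc and Hif1α, 2 to 7 higher and 0 to 4 lower with Hif1α against WT, and 8 to 15 higher and 0 to 0 lower with Myc against WT. Changes near 0 changed sign there. In 3D WT against 2D WT Xrcc5 ran from -0.075 to 0.043, and it ran from -0.023 to 0.076 in 2D Cxcl5-/-, from -0.040 to 0.16 in 3D Cxcl5-/- against 3D WT, from -0.061 to 0.11 against 2D Cxcl5-/-, from -0.061 to 0.14 for the interaction and from -0.013 to 0.17 with Hif1α. Rnf8 ran from -0.11 to 0.41 in 3D Cxcl5-/- against 3D WT and from -0.15 to 0.048 with Hif1α. With 2 libraries each in rescue WT and Cxcl5-/-, small changes in those groups may be missed, and how small was not tested.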
